A study of Homo sapiens with 6 samples.

Results

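The genes described here are 10 members of the cell death machinery: 8 genes of the BCL2 family (BCL2L1, MCL1, BAX, BAK1, BCL2L11, PMAIP1, BBC3 and BID) and the death receptor genes TNFRSF10B and FAS. They were chosen by gene symbol, and each symbol had 1 row among the 60605 genes of the deposited table. The table comes from RNA sequencing of Huh-7 cells, a human hepatoma line, which were loaded with oleic acid (100 µM, 24 h) to give a high-lipid model, starved and then kept for 24 h with or without pectolinarigenin, a plant flavone. The 3 control libraries came from oleic acid-loaded cells given DMSO (0 µM pectolinarigenin), and the 3 treated libraries from oleic acid-loaded cells given 100 µM pectolinarigenin. All 6 libraries therefore carry the oleic acid load, and no library of cells without it is compared here. Whether the 3 libraries of a group are separate cultures is not stated in the labels, and p-values therefore cover the library-to-library spread alone, part of which may be technical. Total counts per library ranged from 15140022 to 20311261. Treated library 3 stood apart from the other treated libraries: chi-square over degrees of freedom, near 1 for sampling noise alone, was 7.59 and 9.85 for its pairs, 4.10 for the remaining treated pair and 1.50 to 2.56 for control pairs. Levels are given as FPKM, the deposited counts scaled to gene length and library total.

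Proteins of the BCL2 family decide whether the outer mitochondrial membrane is opened, the step that releases cytochrome c and starts the caspase cascade. The survival proteins (BCL-XL, made from BCL2L1, and MCL1) hold the effectors BAX and BAK in check, and the BH3-only proteins (BIM from BCL2L11, NOXA from PMAIP1, PUMA from BBC3, and BID) bind survival proteins or effectors and tip that balance. Death receptors such as DR5 (TNFRSF10B) and FAS start the process from the cell surface through CASP8, and in hepatocytes cleaved BID carries that signal to mitochondria. Transcript levels are only part of this control, because MCL1 and NOXA turn over fast as proteins, BID is activated by cleavage and BCL2L1, MCL1 and BCL2L11 make splice forms of unlike function that gene counts do not separate.

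The treated cells had more RNA of the BH3-only genes PMAIP1 (1.74-fold) and BBC3 (1.68-fold) and of the effector BAX (1.31-fold), and less of the BH3-only gene BCL2L11 (1.32-fold lower) and the survival gene BCL2L1 (1.18-fold lower). MCL1, BAK1, BID and TNFRSF10B did not pass the test, and FAS was too low to be tested. By edgeR's quasi-likelihood test with Benjamini-Hochberg adjustment over all 12829 tested genes, 5 of the 9 tested members passed an adjusted p of 0.05, 3 of them higher and 2 lower. Over all tested genes the share that passed was 50.6%, with 25.3% higher and 25.3% lower. The members' share of 55.6% is near that background and is not a result about the family. Of the 9, 8 had FPKM ranges that did not overlap between the groups (58.9% of all tested genes), and in 6 of them the treated libraries were above (33.5% of all tested genes). After TMM scaling, which the test uses, 6 of the 9 had ranges apart. The share of all tested genes with ranges apart on that scale was not counted, so this number is not a result about the family. The median log2 fold change of the 9 tested members was 0.15, beside 0.00071 over all tested genes. Counts are relative to the library, so fewer cells with a transcript and less of it per cell cannot be told apart.

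The promoters of the 4 called members with a single start site in RefSeq and at least 1 match to a searched motif are shown. The genes that moved can so be read beside the sequence before that start site. For BCL2L11 the printed stretch lies inside the gene as placed by GENCODE 29, which begins at 111119378. RefSeq windows (GRCh38.p14) of 300 bases, from 250 before to 50 after the start site, were found for 8 of the 10 members. MCL1 and TNFRSF10B had no window in the table. Each sequence runs 5′ to 3′ on the strand of the gene, stops before the first base that any GENCODE 29 exon of the gene covers, and has motif matches in capitals.
PMAIP1 (chr18:59899746-59899947, plus strand): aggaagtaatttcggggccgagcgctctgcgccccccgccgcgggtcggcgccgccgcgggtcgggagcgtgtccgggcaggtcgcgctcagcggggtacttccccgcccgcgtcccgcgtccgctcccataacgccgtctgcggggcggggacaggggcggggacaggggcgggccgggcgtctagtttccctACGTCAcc
BBC3 (chr19:47232767-47232917, minus strand): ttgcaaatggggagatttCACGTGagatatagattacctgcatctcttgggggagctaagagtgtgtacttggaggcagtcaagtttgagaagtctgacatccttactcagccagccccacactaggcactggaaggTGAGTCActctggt
BAX (chr19:48954625-48954814, plus strand): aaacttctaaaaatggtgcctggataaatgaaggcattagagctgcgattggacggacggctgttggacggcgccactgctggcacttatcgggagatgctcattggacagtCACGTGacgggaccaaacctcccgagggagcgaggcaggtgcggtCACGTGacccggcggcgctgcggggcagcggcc
BCL2L11 (chr2:111120664-111120913, plus strand): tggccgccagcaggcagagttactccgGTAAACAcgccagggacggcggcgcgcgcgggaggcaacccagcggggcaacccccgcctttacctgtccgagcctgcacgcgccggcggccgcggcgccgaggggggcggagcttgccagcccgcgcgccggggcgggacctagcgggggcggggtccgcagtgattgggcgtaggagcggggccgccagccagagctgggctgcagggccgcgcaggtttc

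In all, 7 motifs were searched on both strands in the 300-base windows, and each was also counted over all 35116 windows of the table. PMAIP1 held 1 CRE half-site (TGACGT, the core of the site for CREB and ATF proteins, which reads ACGTCA on the printed strand) from -56 to -51, counting the start site as 0. That motif was in 7.98% of all windows. BBC3 held 1 AP-1 site (TGANTCA, bound by FOS and JUN dimers) from -113 to -107, a motif in 7.71% of all windows, and 1 E-box (CACGTG, bound by MYC, MITF and related factors) from -232 to -227. BAX held 4 E-boxes, at -138, -93, -45 and -14 by their first base. Those at -45 and -14 lie past the end of the printed sequence, which stops where an exon of the gene begins. An E-box was in 7.26% of all windows, and 5 of the 35116 windows (0.0142%), the BAX window among them, held at least 4. The CRE half-site and the E-box both contain the pair CG. The windows of PMAIP1, BAX and BBC3 held 42, 38 and 5 such pairs, beside a median of 14 over all windows. Windows of like CG content were not counted apart, so these shares are not a matched background. BCL2L11 held 1 FOXO site (GTAAACA) from -223 to -217, a motif in 3.42% of all windows. Neither window of BCL2L1 held any of the searched motifs. The other motifs were the full CRE palindrome (TGACGTCA, which contains the half-site, in 1.85% of windows), the C/EBP-ATF composite (TGATGNAA, 3.62%) and NF-kB (GGGNNTTCC, 6.58%). An AP-1 and an NF-kB match were found for FAS, which was not tested, and an NF-kB match and 1 E-box, which lies in 2 overlapping windows, for BID, which did not pass. The CRE half-site and the E-box were added to the search after these promoters had been read. PMAIP1 and BAX matched no other of the 7 motifs, so they are shown only through motifs added after their sequences were read. A match is a description of the letters only.

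In control cells MCL1 had the highest level of the 10 genes on the length-scaled FPKM scale (31.3 ± 0.3), followed by BCL2L1 (29.6 ± 1.2) and TNFRSF10B (28.4 ± 0.4; SD, n = 3 each). BAX followed at 21.7 ± 0.8 FPKM, then BID at 9.57 ± 0.15, BAK1 at 9.50 ± 0.44 and BCL2L11 at 8.96 ± 0.40. PMAIP1 (3.86 ± 0.56) and BBC3 (3.58 ± 0.43) were lower, and FAS was near 0 (0.050 ± 0.026 FPKM). The ranges of MCL1 and BCL2L1, of BID and BAK1, of BAK1 and BCL2L11, and of PMAIP1 and BBC3 overlapped between the control libraries, so the order within each of these pairs is not resolved. In treated cells BAX stood above BCL2L1 without overlap with the deposited lengths, where in control cells BCL2L1 stood above BAX without overlap. With GENCODE 29 exon lengths, an alternative chosen after seeing the data, BCL2L1 had the higher mean in both groups: 37.5 ± 1.5 against 21.7 ± 0.8 in control and 32.6 ± 1.4 against 29.2 ± 2.0 in treated libraries, where the ranges overlapped. BCL2L11 was above PMAIP1 and BBC3 without overlap in control cells, and in treated cells the 3 genes overlapped at 6.99 ± 0.41, 6.88 ± 0.42 and 6.13 ± 0.93 FPKM. The order between genes depends on the gene lengths behind the deposited FPKM. For MCL1 the values imply 6222 bases against 4371 bases of exon in GENCODE 29, and for BCL2L1 4197 against 3314. With the GENCODE 29 lengths the means over the 6 libraries were 45.2 for MCL1, 35.1 for BCL2L1, 28.7 for TNFRSF10B and 25.4 for BAX on the FPKM scale. Comparisons of 1 gene between the groups do not depend on these lengths.

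**Figure D1:**
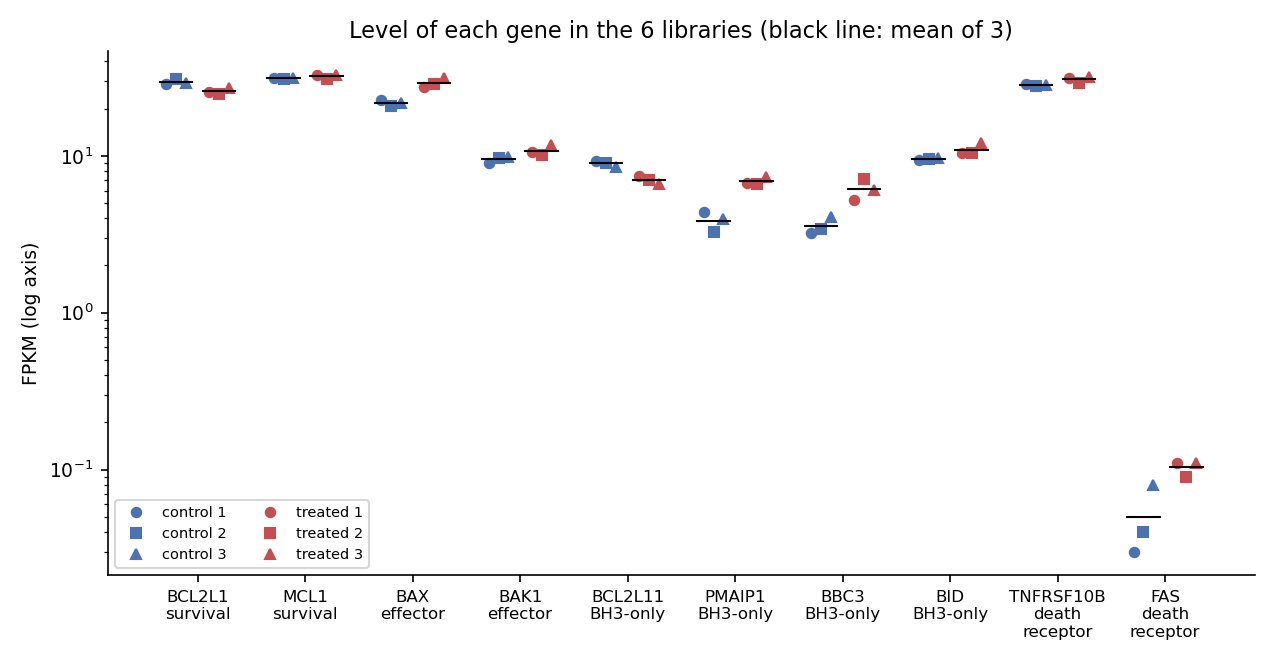
FPKM of each gene on a log axis in the 3 control (blue) and 3 treated (red) libraries, with replicate numbers by symbol and the mean of each group as a black line. PMAIP1, BBC3 and BAX lie higher and BCL2L11 and BCL2L1 lower in every treated library than in any control library, and FAS lies at or under 0.11 FPKM throughout.

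In control cells the survival genes had the highest mean levels of the 8 BCL2 family genes chosen here. BCL2L1 (ENSG00000171552, chromosome 20, 31664452 to 31723989, GRCh38) had 28.8, 31.0 and 29.2 FPKM in control libraries 1 to 3 and 25.7, 24.6 and 26.9 FPKM in treated libraries 1 to 3. All treated values were below all control values. The log2 fold change was -0.24 (SE 0.059; edgeR, adjusted p = 0.00338), a small fall: 50.7% of all tested genes had a change at least as large in either direction. It passed in 14 of 14 alternative analyses, with adjusted p from 0.000153 to 0.0308. The antisense gene ABALON overlaps 43.0% of the BCL2L1 exon length on the opposite strand and had 18 counts over the 6 libraries. Because the strand setting of the counting is not given in the sources used here, reads of the pair cannot be told apart.

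MCL1 (ENSG00000143384, chromosome 1, 150574551 to 150579738), whose protein binds NOXA, had 31.3, 31.0 and 31.5 FPKM in controls 1 to 3, against 32.9, 31.1 and 32.8 in treated libraries 1 to 3. The groups overlapped. Its log2 fold change was 0.0069 (95% interval -0.11 to 0.12; edgeR, adjusted p = 0.926), so a change of more than about 0.12 in either direction lies outside the interval. Its sign turned in 3 alternatives, none of which called it.

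BAX (ENSG00000087088, chromosome 19, 48954815 to 48961798), which forms the mitochondrial pore, had 22.5, 20.9 and 21.6 FPKM in controls 1 to 3, against 27.5, 28.7 and 31.3 in treated libraries 1 to 3. The lowest treated value was above the highest control value. The log2 fold change was 0.39 (SE 0.067; edgeR, adjusted p = 0.000185), and 30.1% of tested genes changed at least as much. BAK1 (ENSG00000030110, chromosome 6, 33572547 to 33580293), the other pore former, had 9.01, 9.65 and 9.85 FPKM in controls 1 to 3, against 10.5, 10.1 and 11.7 in treated libraries 1 to 3. Its FPKM ranges were apart, but they overlapped after TMM scaling, which sets the libraries on a common level through genes that differ little. Its log2 fold change was 0.15 (95% interval -0.035 to 0.34; edgeR, adjusted p = 0.163), and 0.078 without treated library 3. BAX passed and BAK1 did not, but the difference between them was not tested.

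PMAIP1 (ENSG00000141682, chromosome 18, 59899948 to 59904306), which encodes NOXA, a BH3-only protein with a preference for MCL1, had a change that was not resolved from that of BBC3 and was the larger of the pair in the full set of libraries. It had 178, 133 and 131 counts (4.37, 3.26 and 3.96 FPKM) in controls 1 to 3, against 236, 234 and 327 counts (6.72, 6.57 and 7.36 FPKM) in treated libraries 1 to 3. All treated values were above all control values. The log2 fold change was 0.80 (SE 0.12; edgeR, adjusted p = 6.1e-05). A change of that size or more was found in 7.68% of tested genes. Without single libraries the log2 fold change ranged from 0.69 to 0.91. BBC3 had the larger value without control library 2 (0.72 against 0.69) or 3, or treated library 1 or 3.

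BBC3 (ENSG00000105327, chromosome 19, 47220822 to 47232766), which encodes PUMA, a BH3-only protein that binds the survival proteins broadly, had 192, 204 and 196 counts (3.24, 3.43 and 4.06 FPKM) in the control libraries. In the treated libraries it had 269, 369 and 389 counts (5.26, 7.11 and 6.01 FPKM). Treated library 2 was the highest and treated library 1 the lowest of the treated values, and all 3 were above the controls. The log2 fold change was 0.74 (SE 0.12; edgeR, adjusted p = 0.000123), with 0.63 without treated library 2 and 0.84 without treated library 1. A change as large was found in 9.14% of tested genes.

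BCL2L11 (ENSG00000153094, chromosome 2, 111119378 to 111168447), which encodes BIM, a BH3-only protein that also engages BAX and BAK directly, moved the other way. It had 9.30, 9.05 and 8.52 FPKM in controls 1 to 3, against 7.38, 7.03 and 6.57 in treated libraries 1 to 3, with no overlap. Its log2 fold change was -0.40 (SE 0.066; edgeR, adjusted p = 0.000146), and 29.7% of tested genes changed at least as much. The long non-coding gene MIR4435-2HG covers 10.9% of the BCL2L11 exon length on the opposite strand and had 1531 counts over the 6 libraries, so a share of reads in that stretch is uncertain.

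BID (ENSG00000015475, chromosome 22, 17734138 to 17774770), the link from death receptors to mitochondria, had 9.44, 9.53 and 9.74 FPKM in controls 1 to 3, against 10.4, 10.4 and 12.0 in treated libraries 1 to 3. All treated values were above all control values, with treated library 3 the highest. The log2 fold change was 0.16 (95% interval 0.0023 to 0.32) and the unadjusted p of 0.0472 became 0.0846 after adjustment in edgeR. It passed in 2 of 14 alternatives: with library totals in place of TMM factors (0.20, adjusted p = 0.0325) and without treated library 1 (0.20, adjusted p = 0.0426). Without treated library 3 the log2 fold change was 0.077.

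**Figure D2:**
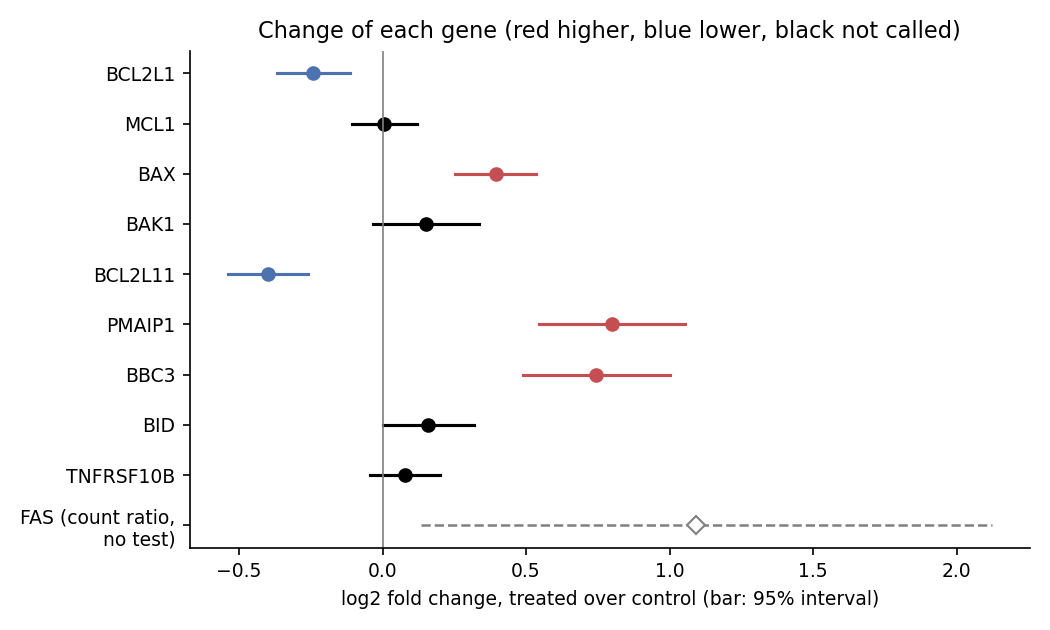
Log2 fold change (treated over control) with its 95% interval for the 9 tested genes, and for FAS the ratio of summed counts with an interval for counting error alone (dashed, no test). PMAIP1 and BBC3 lie at 0.80 and 0.74, BAX at 0.39, BCL2L1 and BCL2L11 below 0, and the intervals of MCL1, BAK1 and TNFRSF10B include 0.

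The death receptor genes differed in level. TNFRSF10B (ENSG00000120889, chromosome 8, 23020133 to 23069179), which encodes the TRAIL receptor DR5, had 28.7, 28.0 and 28.4 FPKM in controls 1 to 3, against 31.3, 29.1 and 31.9 in treated libraries 1 to 3. The FPKM ranges were apart and overlapped after TMM scaling. The log2 fold change was 0.080 (95% interval -0.042 to 0.20; edgeR, adjusted p = 0.264), and it passed in 0 of 14 alternatives, DESeq2 and limma included, with an unadjusted p of 0.184 in edgeR. Without treated library 2 the log2 fold change was 0.12 and without treated library 3 it was 0.045. FAS (ENSG00000026103, chromosome 10, 88990582 to 89015785), the receptor for FAS ligand, had 3, 4 and 7 counts in controls 1 to 3, against 10, 8 and 12 in treated libraries 1 to 3, which is under the expression filter of a mean of 1 FPKM. A count of 3, the limit that a count of 0 would allow, corresponds to 0.148 to 0.198 CPM (counts scaled to the library total) in these libraries. Per library total, the 30 treated counts against 14 control counts give a ratio of 2.13 (95% exact interval 1.10 to 4.35, for counting error only). With no expression filter its log2 fold change was 1.05 and did not pass (edgeR, adjusted p = 0.170; 22.7% of the 34374 genes passed there). ACTA2 on the opposite strand covers 8.93% of the FAS exon length and had 32 counts in all, close to the number for FAS itself.

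**Figure D3:**
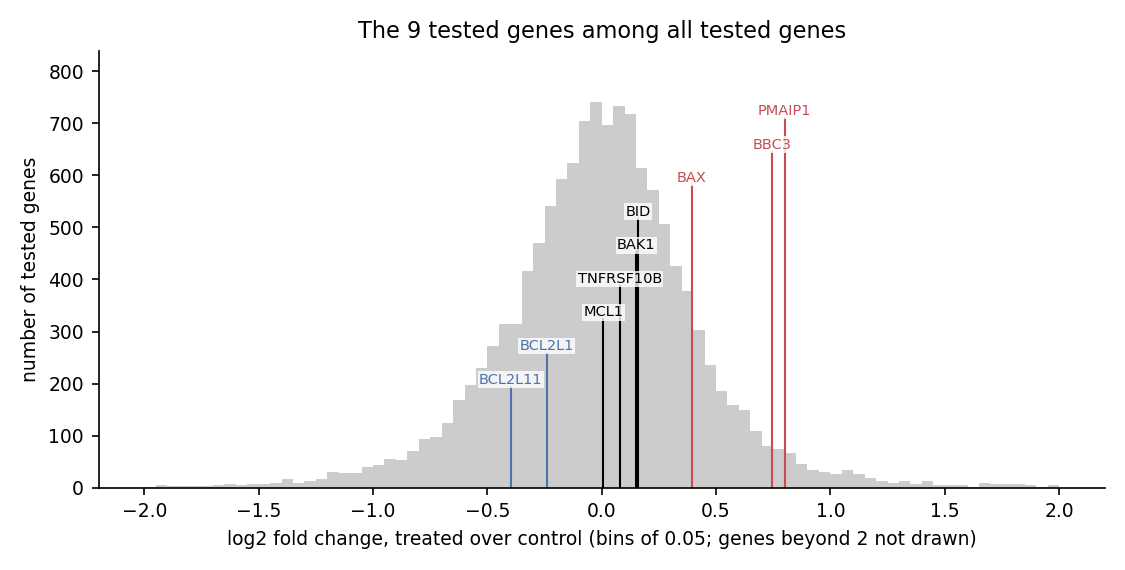
Number of tested genes by log2 fold change (grey, bins of 0.05; 103 genes beyond 2 in either direction are not drawn), with the 9 tested genes as lines whose heights carry no value. PMAIP1 and BBC3 lie in the upper shoulder, and MCL1 at 0.0069 lies at the centre of the distribution.

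Ratios within a library do not depend on its total count. BAX relative to BCL2L1, by FPKM, was 0.783, 0.674 and 0.740 in controls 1 to 3, against 1.07, 1.16 and 1.17 in treated libraries 1 to 3 (0.732 ± 0.055 against 1.13 ± 0.05 with the deposited lengths; SD, n = 3 each). PMAIP1 was 14.0%, 10.5% and 12.6% of MCL1 in controls 1 to 3, against 20.4%, 21.2% and 22.5% in treated libraries 1 to 3. BCL2L11 relative to BBC3 was 2.87, 2.64 and 2.10 in controls 1 to 3, against 1.40, 0.989 and 1.09 in treated libraries 1 to 3. The groups did not overlap for any of these 3 ratios. The size of a ratio depends on the gene lengths: with GENCODE 29 exon lengths BAX relative to BCL2L1 was 0.578 ± 0.043 in control and 0.896 ± 0.042 in treated libraries, both under 1. PMAIP1 was then 8.49% ± 1.19 and 14.7% ± 0.7 of MCL1, while the change between the groups stays the same because lengths cancel. The pairs were chosen after the values were seen, so the ratios are a description with no test.

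**Figure D4:**
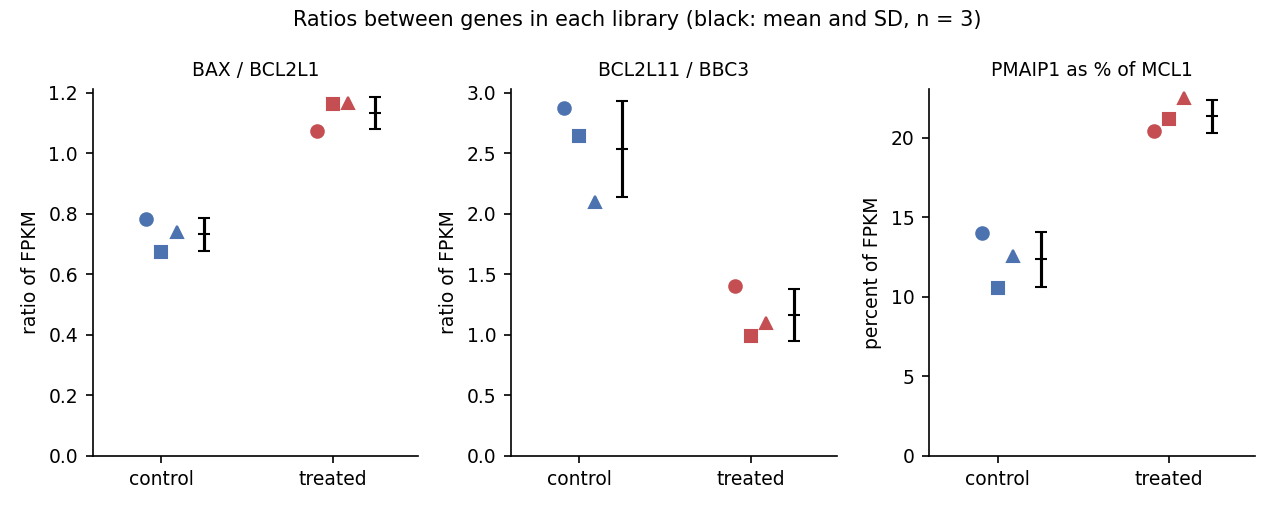
Ratios of FPKM between pairs of genes in each library (blue control, red treated, symbols for replicates 1 to 3), with mean and SD in black. With the deposited gene lengths the control and treated means are 0.732 and 1.13 for BAX over BCL2L1, 2.54 and 1.16 for BCL2L11 over BBC3, and 12.3% and 21.3% for PMAIP1 over MCL1.

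The genes nearest to PMAIP1 in pattern, by Euclidean distance of log2 CPM over the 6 libraries after subtracting each gene's control mean, were RXYLT1 (distance 0.18, log2 fold change 0.80), NFKB2 (0.21 and 0.77) and ZNF420 (0.22 and 0.84). RXYLT1 is a glycosyltransferase gene and NFKB2 an NF-kB subunit gene.

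Other members of the family were read from lists drawn up with earlier results of these data known, and each list's counts stand beside the 25.3% of all tested genes that were higher and the 25.3% that were lower. Of 4 further survival genes, BCL2L2 (BCL-W) was the only one above the filter, and it rose from 8.42 ± 0.46 to 10.3 ± 0.4 FPKM (log2 fold change 0.25, SE 0.069; edgeR, adjusted p = 0.00636), with adjusted p = 0.0502 without control library 2. BCL2 itself had 0, 1 and 1 counts in controls 1 to 3, against 3, 6 and 4 in treated libraries 1 to 3 and did not pass with no filter (adjusted p = 0.0796). Of 10 further effector, BH3-only and BH3-like genes 7 were tested, of which 1 rose, 1 fell and 5 did not pass, with a median of -0.0037. BAD, a BH3-only protein controlled by phosphorylation, rose from 4.15 ± 0.60 to 6.28 ± 0.66 FPKM (0.57, SE 0.13; adjusted p = 0.00237), and BCL2L13, a mitochondrial outer membrane protein, changed by -0.18 (SE 0.056). BCL2L13 passed in 9 of 14 alternatives, and its adjusted p was 0.0831 without control library 2 and 0.0570 without control library 3. BNIP3, a mitophagy receptor, did not pass (0.29, SE 0.13; adjusted p = 0.0791), and its value rested on treated library 3, without which it was 0.031. It passed in 5 of 14 alternatives, among them with a replicate block (0.25, adjusted p = 0.0222) and without treated library 1 (0.37, 0.0327) or 2 (0.42, 0.00928).

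The ligand of DR5 fell while the receptor did not pass the test. TNFSF10, which encodes TRAIL, had 9.33, 8.40 and 8.77 FPKM in controls 1 to 3, against 3.91, 4.44 and 3.61 in treated libraries 1 to 3 (-1.19 on the log2 scale, SE 0.091; edgeR, adjusted p = 1.26e-07). A change as large was found in 2.77% of tested genes. Of 10 further receptors, decoys and ligands 4 were tested: TNFRSF21 (DR6) rose by 0.93 (SE 0.11), TNFSF10 and the TNF receptor TNFRSF1A (-0.53, SE 0.066) fell, and the decoy TNFRSF10D did not pass (-0.19, SE 0.099; edgeR, adjusted p = 0.114). TNFRSF10D passed with a replicate block (-0.21, adjusted p = 0.0469) and without treated library 3 (-0.31, 0.00432), and was -0.075 without treated library 2. FASLG had 0 counts in all 6 libraries.

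Downstream of the receptors, 1 of 7 adaptor and initiator genes rose, 2 fell and 4 did not pass. The initiator CASP8 rose from 5.85 ± 0.16 to 8.15 ± 0.09 FPKM (0.44, SE 0.061; adjusted p = 3.21e-05). CFLAR, which encodes the CASP8 inhibitor FLIP, changed by -0.28 (SE 0.064) and CASP10 by -0.33 (SE 0.080). Downstream of the mitochondria, 1 of 6 caspase and apoptosome genes rose and 3 fell. CYCS, cytochrome c, rose from 29.9 ± 1.9 to 45.4 ± 4.2 FPKM (0.57, SE 0.073; adjusted p = 1.63e-05). APAF1, the scaffold that cytochrome c binds, fell from 12.4 ± 0.4 to 8.47 ± 0.99 FPKM (-0.59, SE 0.072; adjusted p = 1.03e-05). CASP6, a caspase gene, changed by -0.22 (SE 0.064; edgeR, adjusted p = 0.0115), with adjusted p = 0.0767 without control library 3. The remaining gene that fell was CASP2 (-0.23, SE 0.071; edgeR, adjusted p = 0.0137), which passed in 10 of 13 alternatives and not in either limma analysis or without control library 2 (adjusted p = 0.0643). Of 6 tested genes of released mitochondrial proteins and pore partners 2 rose and 0 fell: the channel genes VDAC2 (0.31, SE 0.063), whose product holds BAK, and VDAC1 (0.14, SE 0.054), which passed in 10 of 14 alternatives and not without control library 1, 2 or 3 or treated library 2 (adjusted p = 0.0547, 0.163, 0.110 and 0.0622). HTRA2, a mitochondrial protease, had 0.20 (SE 0.11) and did not pass, but passed without control library 1 (0.33, edgeR, adjusted p = 0.0352) and was 0.11 without control library 2.

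Of 5 tested inhibitors of apoptosis 2 rose and 2 fell. BIRC3 (cIAP2), an NF-kB target, rose from 0.760 ± 0.105 to 1.69 ± 0.11 FPKM (1.12, SE 0.13), while BIRC6 changed by -0.71 (SE 0.096) and XIAP, which blocks caspases, by -0.30 (SE 0.063). BIRC5 (survivin) was the other that rose (0.18, SE 0.064) and passed in 10 of 14 alternatives. It did not pass without control library 1, 2 or 3 in turn or without treated library 3, where the count was 1. At a mean FPKM of at least 5 the count was also 1, because BIRC3 (mean 1.22 FPKM) is under that filter. Of 5 genes for enzymes that add or remove ubiquitin on MCL1, 3 fell and 1 rose. At a mean FPKM of at least 5 the counts were 4 and 0, because the gene that rose, FBXW7 (mean 2.97 FPKM), is under that filter. FBXW7 passed in 13 of 13 alternatives in which it was tested. The ligase gene HUWE1 (MULE) had 43.3, 45.2 and 44.1 FPKM in controls 1 to 3, against 29.3, 22.2 and 18.25 in treated libraries 1 to 3 (-0.97, SE 0.11; adjusted p = 6.53e-06), and the treated libraries were all below the controls and spread widely. Without treated library 3 its log2 fold change was -0.82. The deubiquitinase USP9X changed by -0.38 (SE 0.068) and the ligase subunit FBXW7 by 0.38 (SE 0.069). Over treated libraries 1 to 3, USP9X (19.05, 16.77 and 15.31 FPKM) and BIRC6 (7.56, 6.02 and 5.14 FPKM) declined in the same order as HUWE1. The reason for that order was not tested. The remaining gene that fell was the ligase subunit BTRC (-0.20, SE 0.065; edgeR, adjusted p = 0.0165), which passed in 9 of 14 alternatives and not with no filter, in either limma analysis or without control library 1 or 3 (adjusted p = 0.0578 and 0.0712). Of 12 tested genes in the stress and transcription factor list, 7 rose and 2 fell, beside 25.3% of all tested genes each way. That list also holds genes that are not transcription factors, CDKN1A among them. JUN (2.07, SE 0.066), DDIT3 (CHOP; 1.83, SE 0.081), ATF3 (2.85, SE 0.15) and TRIB3 (1.10, SE 0.087) led the list, whose median was 0.56. The 2 that fell were CDKN1A (-0.71, SE 0.11) and E2F1 (-0.32, SE 0.063). BIRC5, TNFRSF10D, CASP2, BTRC, BCL2, FASLG, CDKN1A, E2F1 and the hepatocyte genes AFP, APOB and TTR were named after their values were seen.

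**Figure D5:**
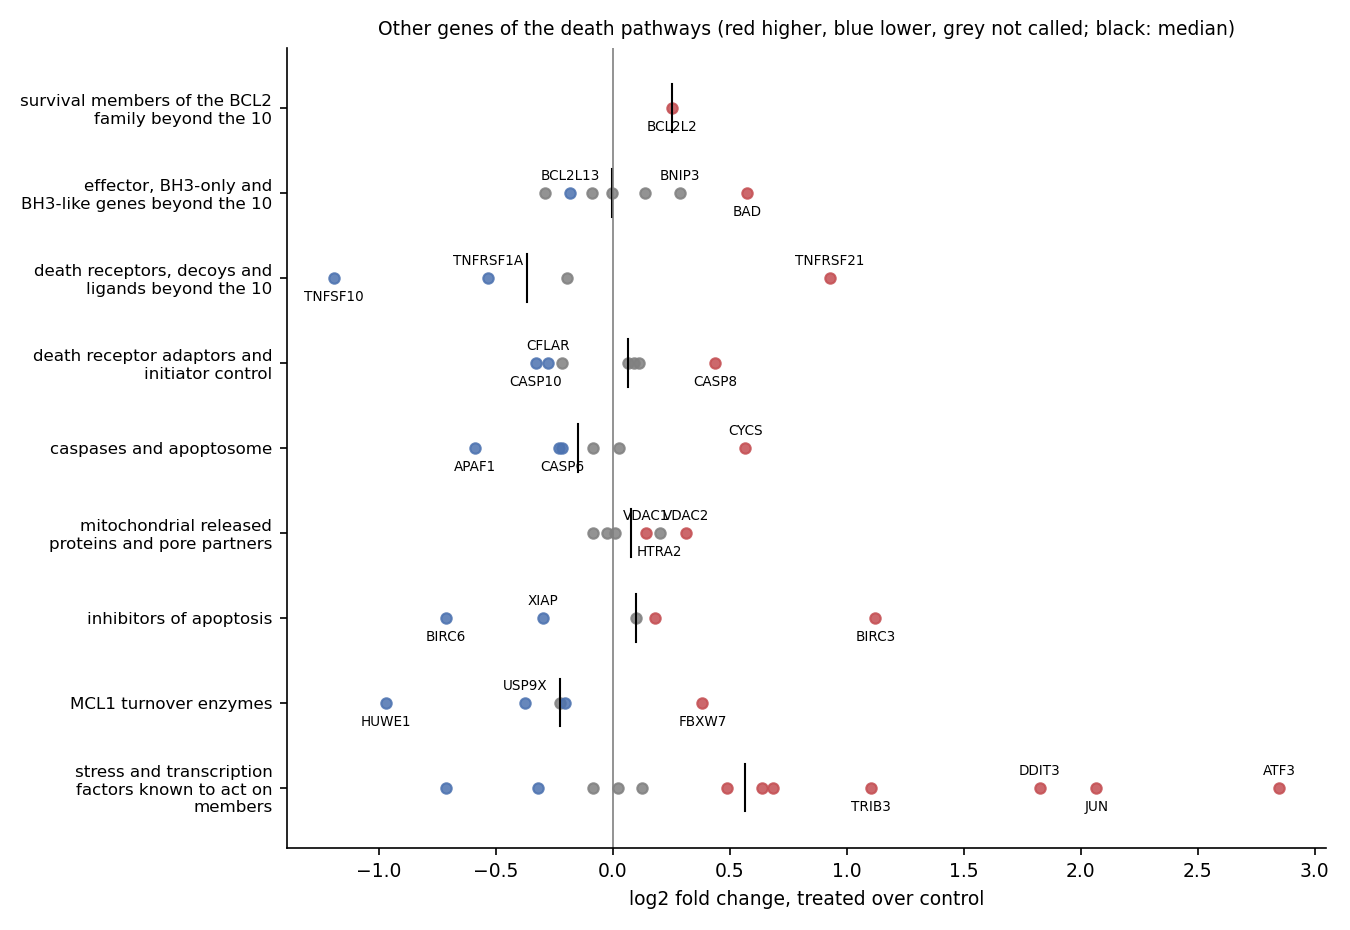
Log2 fold change (treated over control) of every tested gene in 9 lists of the death pathways, with the median of each list as a black line and the genes chosen by rule labelled. The lists of caspases and of inhibitors of apoptosis hold genes on both sides of 0, from APAF1 at -0.59 to CYCS at 0.57 and from BIRC6 at -0.71 to BIRC3 at 1.12.

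All 9 hepatocyte markers were above 1 FPKM, led by ALB, and 8 of them fell in the treated libraries, beside 25.3% of all tested genes. The summed level of the 9 was 8964 to 9757 FPKM in treated against 12459 to 12667 in control libraries. Most of that sum was ALB (mean 5475 FPKM in control, 3530 in treated) and AFP (4815 and 3919). The count that fell was 6 to 8 over the alternatives: APOB, whose ranges overlapped, passed in 4 of 14 and TTR in 5 of 14, and without treated library 3 APOB was -0.13 against -0.24 with it. Of 5 leukocyte, 5 fibroblast and 4 endothelial markers, LYZ and PECAM1 were the only ones at 1 FPKM or more, and DCN had 0 counts and COL1A2 1 count over the 6 libraries. LYZ (mean 52.0 FPKM) rose by 0.67 and PECAM1 (1.84 FPKM) changed by -1.05. The summed level was 39.6 to 40.1 FPKM in control and 52.9 to 76.6 in treated libraries for the leukocyte markers, of which LYZ was nearly all, 0.36 to 0.49 and 0.13 to 0.15 for the fibroblast markers, and 2.32 to 2.63 and 1.16 to 1.37 for the endothelial markers. Their part in the members' changes was not tested.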

How the data were processed

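RNA from 6 libraries of oleic acid-loaded Huh-7 cells (3 control, 3 treated) was read from 1 deposited table. The authors deposited raw counts per gene and FPKM (counts scaled to gene length and library total), per the file headers. The tools cutadapt 1.9.1, HISAT2 2.0.1 and HTSeq 0.6.1 and the build GRCh38 are named in the submitters' processing notes; for the annotation release and strand setting: not given in the sources used here. Counts were tested with edgeR 4.0.16 in R 4.3.3 (TMM factors, quasi-likelihood test, 2-sided) on the 12829 genes with a mean FPKM of at least 1, with Benjamini-Hochberg adjustment and a threshold of 0.05. Standard errors came from the F statistic. Positions and overlaps are from GENCODE 29. The members, lists and tests were chosen with earlier results of these data known. Genes named from a list are up to 3 with the smallest p, and any called with an absolute log2 fold change of at least 1. From the marker lists, the hepatocyte marker with the highest FPKM and markers of other cell types at 1 FPKM or more were named. On simulated counts for these 12829 genes, 82 of 100 genes changed 1.5-fold and 90 of 100 changed 2-fold were recovered, with 13 false calls. No other gene was changed there, and each gene had the same spread setting in both groups. In the data 50.6% of tested genes passed and the treated libraries spread more than the controls, so this recovery need not hold there. Alternatives were other scalings, filters, DESeq2 1.42.0, limma 3.58.1 on log2(FPKM + 1) and log2(FPKM + 0.1), a replicate block and leaving out each library. No pair of libraries within a group was within sampling noise of being the same (chi-square over degrees of freedom 1.50 to 9.85). A few list genes and 1 motif are not reported here and were left out of the lists' counts.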

Additional observations from a re-analysis of the deposited data

How the results depend on the processing

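The 5 members that passed kept their call and direction in every alternative in which they were tested (14 each, and 13 for BBC3, which is under a mean FPKM of 5). Of all genes, 6486 were called; with the stricter filter (mean FPKM 5 or more, 7144 genes tested) 4098 were; without single libraries it was 5292 to 6517. BID passed with library totals in place of TMM (log2 fold change 0.20). Without single libraries BID ranged from 0.077 to 0.20 and MCL1 from -0.011 to 0.038. MCL1 was -0.0075 at a mean FPKM of at least 5. Same-numbered libraries of the 2 groups did not deviate together (r = -0.0069, 0.025 and -0.012 across genes), and not every library correlated best with its own number. With a replicate block 6540 genes were called, and the members' counts stayed at 3 higher and 2 lower. Gene counts cannot separate splice forms, and FAS rests on 14 control and 30 treated counts, so its change is not resolved at this depth. With GENCODE 29 exon lengths, chosen after seeing the data, the treated ratio of BAX to BCL2L1 was 0.896 instead of 1.13.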

Other observations

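Genes of the death pathways under the expression filter were read with no filter (edgeR, adjusted over 34374 genes, of which 22.7% passed). Of 16 such genes, FAS included, 5 passed, 9 did not and 2 had 0 counts. BIK, a BH3-only gene, had 1, 4 and 1 counts in controls 1 to 3, against 8, 12 and 16 in treated libraries 1 to 3 (log2 fold change 2.49, adjusted p = 0.000451). HRK, another BH3-only gene, had 2, 3 and 3 counts against 12, 11 and 4, with overlap of FPKM (1.71, adjusted p = 0.0322). BCL2L14 had 101, 113 and 90 counts against 52, 41 and 35 (-1.26, adjusted p = 1.18e-10), and the transcription factor gene TP73 had 127, 136 and 104 against 40, 66 and 68 (-1.10, adjusted p = 6.54e-10). DIABLO, the gene of the IAP antagonist SMAC, had 35 to 53 counts in the control and 63 to 76 in the treated libraries (0.53, adjusted p = 0.0310), and it shares exons with overlapping gene models in GENCODE 29, so its level is uncertain. The TRAIL receptor TNFRSF10A had 48, 30 and 38 counts against 29, 28 and 29 and did not pass (-0.45, adjusted p = 0.211). These genes were chosen after their values were seen.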
